A study of Mus musculus with 6 samples.

Results

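The 33 genes described here encode the subunits of the RNA polymerases of mouse cells. They were taken by symbol (Polr1, Polr2 or Polr3 followed by letters, and Polrmt, Cd3eap, Twistnb, Znrd1 and Crcp) from tables of 39017 genes. In the nucleus, Pol I makes the large precursor of ribosomal RNA, Pol II makes mRNAs and many non-coding RNAs, and Pol III makes tRNAs, 5S ribosomal RNA and other short RNAs. Each is built around a pair of large catalytic subunits, with smaller subunits that are either its own or shared, and the mitochondrial polymerase is a single chain. Of the 33 genes, 6 belonged to Pol I alone, 8 to Pol II, 11 to Pol III alone, 2 to Pol I and Pol III, 5 to all 3 nuclear polymerases, and 1, Polrmt, to mitochondria. Polr2m, counted here with Pol II, encodes Gdown1, a protein bound to a fraction of Pol II and not a core subunit.

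The study asked how the loss of RNA polymerases affects genome folding in mouse embryonic stem cells (mESCs), and this polyA RNA-Seq covers the Pol II line. The degron cells were V6.5 mESCs (C57BL/6 × 129/sv) that carry a Tir1 cassette at Rosa26 and, on both alleles of Polr2a, the mAID-EGFP tag at the C-terminus of RPB1, the largest Pol II subunit. Tir1 is a plant protein that, with auxin, sends tagged proteins to the proteasome. The degron line was clonal, chosen for efficient degradation, and whether more than 1 clone was sequenced is not given in the sources used here. Both of its groups received 1 μg/ml doxycycline for 12 h, one without auxin (untreated, n = 2) and one with 500 μM auxin for a further 6 h (n = 2). The third group was wild-type mESCs (n = 2). Whether the wild-type cells received doxycycline is not stated in the sources used here, so tag, Tir1, clone, doxycycline and batch cannot be told apart in that comparison. The mESCs had been grown on irradiated feeder fibroblasts and were harvested after passages without them. The study's methods speak of biological replicates for its sequencing experiments in general, without saying what was separate between the 2 libraries of a group, so the p-values cover the spread between these libraries.

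The libraries held between 14094022 and 15358714 counts, of which the 33 genes took 0.257% to 0.274%. All 10 pluripotency markers were detected in every library. They summed to 4540 and 5100 CPM (counts scaled to the library's total) in the untreated, 3780 and 3960 in the auxin-treated and 7170 and 7140 in the wild-type libraries. The 10 feeder fibroblast markers summed to 203 and 194, 229 and 256, and 143 and 149 CPM in the same order. Because the label of the wild-type libraries mentions retinas in the extraction of RNA, 10 retina markers were also checked, and they summed to between 5.88 and 8.59 CPM in all 6 libraries, with Crx and Rcvrn at 0 throughout. The mRNAs encoded by mitochondrial DNA took 0.341% to 0.441% of the counts in the degron libraries and 1.53% and 1.5% in the wild-type libraries. In bulk RNA, a change in the mix of cells and a change in mRNA per cell cannot be told apart.

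Per kilobase of exon, subunit mRNAs were above the typical gene. The level used was TMM-scaled CPM per kilobase, with the length taken over the exons of all annotated transcripts of a gene. Which transcripts the cells used was not measured, so genes with long annotated exons may stand too low in the order. Among these were Polr1a, at 11871 bases, and Polr3f, at 7710. On this scale the members had a median of 21.6 in the untreated cells and the genes tested a median of 4.95. Polr2e, a subunit common to all 3 polymerases, was highest in the untreated cells, at 88.0 ± 13.4 (SD, n = 2). Polr2m at 70.9 ± 2.21, Polr2a at 64.6 ± 1.04 and Polr2g, which forms the stalk of Pol II with the Polr2d product, at 62.5 ± 0.319 followed (SD, n = 2 each). The values of these 4 neighbours in the order did not overlap between the 2 untreated libraries, but lower in the order many neighbours did, among them Polr2i, Polr2c, Polr2h and Polr2b. Polr3f, which encodes a Pol III initiation subunit, was lowest, at 3.89 ± 0.0585. Catalytic subunits of Pol I and Pol III stood in the lower part of the order, with Polr1a at 10.8 ± 0.410, Polr1b at 10.3 and 9.75 in its 2 libraries, Polr3a at 9.57 ± 0.467 and Polr3b at 16.0 ± 1.71, and the mitochondrial Polrmt was at 11.5 ± 0.824 (SD, n = 2 each). On this scale, which depends on the annotated lengths, subunit mRNAs of one enzyme thus differed several-fold. Within Pol II the range ran from 25.8 ± 0.608 for Polr2b, the second catalytic subunit, to 70.9 for Polr2m.

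**Figure D1:**
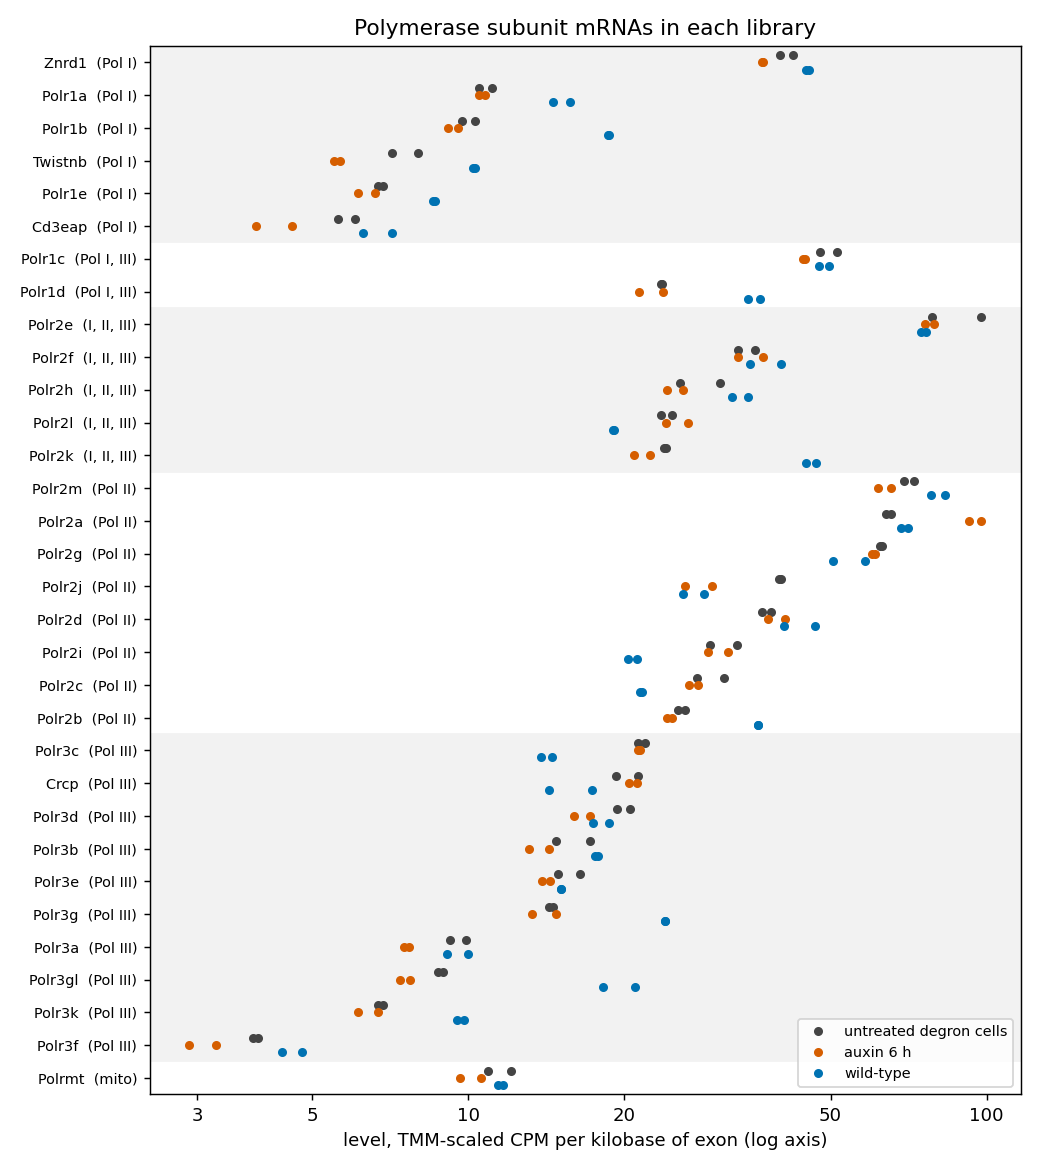
Level of 32 of the 33 subunit mRNAs in each library, as TMM-scaled CPM per kilobase of exon on a log axis, with the genes grouped by polymerase and 1 point for each library (2 libraries a group). Polr2a is the only Pol II gene whose auxin-treated libraries lie clearly above both other groups, at 92.3 and 97.4, while Polr3gl, Polr3g, Polr2k and Polr1b are highest in the wild-type libraries on this scale (lower there when scaled to mitochondrial mRNAs).

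Auxin treatment asks what happens to these mRNAs when the RPB1 protein is being degraded. Levels here are relative to the other mRNAs of a library, because the scaling assumes that most genes keep their level. The amount of mRNA per cell was not measured. A smaller loss than that of other mRNAs would therefore read as a rise, and this was not tested. On this relative scale, Polr2a mRNA rose, the mRNAs of Polr2j, Twistnb and Polr3a fell, and the other 29 subunit genes did not pass the test. These 4 called genes of 33 (12.1%) stand beside 4.20% of the 16128 genes tested that were called in either direction (2.56% higher and 1.64% lower). A call means an adjusted p under 0.05 in the quasi-likelihood test of edgeR, adjusted by the Benjamini-Hochberg method over all genes tested, and all adjusted p-values below come from this test unless another tool is named. The members' median log2 fold change was −0.09, and 27 of 33 (81.8%) were below 0, against a median of −0.0004 and 50.1% below 0 for all genes tested. At an unadjusted p under 0.05, 1 subunit gene was higher and 7 were lower (21.2%). Among the 16128 genes tested, 1733 were higher and 1512 lower (9.38%) at that threshold. DESeq2 called Polr2a higher and Polr2j lower, beside 128 of these genes higher and 108 lower. Single libraries bore on the count of calls, over all genes tested as over the members. With each library left out in turn, the log2 fold change was 0.53 to 0.60 for Polr2a and −0.59 to −0.42 for Polr2j. It was −0.51 to −0.34 for Twistnb and −0.36 to −0.27 for Polr3a.

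Polr2a encodes RPB1, the catalytic subunit whose C-terminal domain of repeated heptapeptides is phosphorylated during the transcription cycle. It lies on the minus strand at chr11:69733997-69758637 (mm10), with no other annotated gene overlapping it. The end of its coding sequence is shown because this is where the tag was joined. It is in the last exon of the GENCODE vM21 transcript Polr2a-201, on the minus strand at chr11:69734410-69734559, with the stop codon in capitals.
Polr2a coding end: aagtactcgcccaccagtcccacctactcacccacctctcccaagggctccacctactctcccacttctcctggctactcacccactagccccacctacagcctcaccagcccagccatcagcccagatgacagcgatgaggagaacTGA

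Polr2a had 6623 and 6568 counts in the untreated libraries and 10396 and 10663 after auxin. Both auxin-treated libraries were therefore above both untreated ones, and the difference between the groups was far larger than that within them. After TMM scaling this was 463 ± 7.30 and 688 ± 22.8 CPM (SD, n = 2 each). Relative to the other mRNAs, this was a 1.49-fold rise with a 95% interval of 1.34 to 1.65 (log2 fold change 0.57, standard error 0.07, adjusted p = 0.00117). The degron acts on the protein, so the mRNA does not measure its depletion. The log2 fold change was between 0.40 and 0.60 under every alternative, but the gene was no longer called when auxin-treated replicate 2 was left out (adjusted p = 0.0515) or when libraries were scaled to mitochondrial mRNAs (0.40, adjusted p = 0.279). That scaling moved the median of all genes to −0.17, with 167 genes called higher and 52 lower in place of 413 and 264, and relative to this median Polr2a was at 0.57.

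Within each library, Polr2a was also set against the other genes counted with Pol II, without any scaling between libraries. This ratio reuses the same Polr2a counts, and Polr2j in its denominator was lower after auxin. It shows Polr2a relative to these genes and is not separate support for a rise. The ratio of the Polr2a level to the summed level of the other 7 genes counted with Pol II was 0.224 and 0.211 in the untreated, 0.347 and 0.346 in the auxin-treated and 0.236 and 0.252 in the wild-type libraries. The auxin-treated libraries thus stood apart from the other 4, which lay close together. Without Polr2m the ratio was higher in all groups and kept this order, at 0.294 and 0.278, 0.452 and 0.452, and 0.324 and 0.359. No test was made of these ratios, since an exact permutation test of 2 against 2 libraries cannot pass a threshold of 0.05.

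No other gene counted with Pol II rose with Polr2a. Polr2b, the second catalytic subunit, had 1755 and 1722 counts in the untreated and 1804 and 1787 in the auxin-treated libraries (log2 fold change −0.06, 95% interval −0.20 to 0.08, adjusted p = 0.691). Polr2c, whose product pairs with that of Polr2j during assembly, was at −0.09 (adjusted p = 0.536). Polr2d and Polr2g, the stalk pair, were at 0.09 and −0.03, Polr2i, which has a part in start-site choice and proofreading, at −0.02, and Polr2m at −0.14 on the log2 scale, with none of them called. Their intervals lay between −0.28 and 0.27, so changes of that size are not excluded by these libraries.

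Polr2j encodes the small assembly subunit RPB11, the partner of RPB3. It lies on the plus strand at chr5:136116631-136122947, and its exons overlap those of Lrwd1 on the other strand, with 6.98% of its 100-base stretches shared with that gene. Polr2j had 630 and 647 counts in the untreated and 462 and 507 in the auxin-treated libraries, with no overlap between the groups. It was at 44.8 ± 0.400 and 31.7 ± 2.56 CPM (SD, n = 2 each) and so fell by 0.50 on the log2 scale (standard error 0.09, adjusted p = 0.00822), to 0.707 of the untreated level. The call was lost with no filter on low counts (adjusted p = 0.0736), under mitochondrial scaling (0.0627) and without auxin-treated replicate 1 (0.115).

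Among Pol I genes, Twistnb encodes the stalk subunit RPA43, which contacts the initiation factor Rrn3. It lies on the plus strand at chr12:33429635-33441392, and 4.23% of its stretches are shared with the pseudogene Gm8670. Twistnb had 526 and 600 counts in the untreated and 464 and 441 in the auxin-treated libraries. The groups did not overlap, but the untreated libraries differed more from each other than the treated ones. The level fell by 0.42 on the log2 scale (standard error 0.09, adjusted p = 0.0234), and the call was lost with DESeq2 (adjusted p = 0.126), with no filter (0.113), under mitochondrial scaling (0.157) and without either auxin-treated library (0.128 and 0.171).

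Cd3eap, which encodes one member of the Pol I dimer that resembles the general factor TFIIF, had 200 and 219 counts untreated and 155 and 177 after auxin, which was −0.44 on the log2 scale and was not called (adjusted p = 0.0955), though it was with all 3 groups in one fit (0.0445), with the replicate block (0.0239) and without untreated replicate 1 (0.0124). Its exons overlap Ercc1 on the other strand. Polr1e, the other member of that dimer, was at −0.07. Polr1a, the largest Pol I subunit, had 1794 and 1920 counts untreated and 1989 and 1979 after auxin, which was −0.01 on the log2 scale (95% interval −0.15 to 0.14, adjusted p = 0.964). Polr1b was at −0.07 and Znrd1, the RNA-cleavage subunit, at −0.14, neither called. All 6 Pol I genes had a negative log2 fold change, with a median of −0.11.

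In Pol III, Polr3a encodes the largest subunit and lies on the minus strand at chr14:24448696-24487058. It had 827 and 783 counts in the untreated and 715 and 679 in the auxin-treated libraries, again without overlap. The fall was 0.31 on the log2 scale (standard error 0.08, adjusted p = 0.0432), from 56.5 ± 2.74 to 45.5 ± 0.967 CPM (SD, n = 2 each). This call was the closest to the threshold and was lost with DESeq2 (adjusted p = 0.246), library totals (0.0631), no filter (0.137), a stricter filter of 10 counts in each library (0.0585), mitochondrial scaling (0.289) and without either auxin-treated library (0.222 and 0.297). Polr3f and Polr3d, a further initiation subunit and a subunit of the dimer that acts in termination, were next in order of p-value, at −0.32 (adjusted p = 0.0817) and −0.25 (adjusted p = 0.0979). Both were called with all 3 groups in one fit (0.0342 and 0.0462), with the replicate block (0.016 and 0.022) and without untreated replicate 1 (0.0403 and 0.0132), and Polr3f also without untreated replicate 2 (0.0459). Polr3b, the second catalytic subunit, was at −0.20 (adjusted p = 0.202), and 9 of the 11 Pol III genes were below 0, with a median of −0.13.

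None of the 5 subunits shared by all 3 polymerases was called after auxin by edgeR or by DESeq2, and 0 had an unadjusted p under 0.05. They ran from −0.16 for Polr2e to 0.09 for Polr2l, with Polr2h at −0.14, Polr2k at −0.13 and Polr2f at 0.05. Polr2e and Polr2h turned on the untreated libraries, since without untreated replicate 1 both were called, at −0.32 (adjusted p = 2.39e-05) and −0.27 (adjusted p = 0.0407), and without untreated replicate 2 they were at −0.0031 and −0.014. The Pol I and Pol III assembly pair, Polr1c and Polr1d, was at −0.14 and −0.05. Polrmt, which transcribes mitochondrial DNA, had 734 and 824 counts untreated and 720 and 773 after auxin (log2 fold change −0.16, 95% interval −0.35 to 0.02, adjusted p = 0.302). Over the 29 genes not called, the intervals reached from −0.74 for Cd3eap to 0.28 for Polr2l. Along with these values, 5 of the 10 pluripotency markers were lower after auxin (median −0.40) and 1 of the 8 feeder fibroblast markers tested, Col1a2, was higher at 0.36. Their part in the subunit values was not tested.

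**Figure D2:**
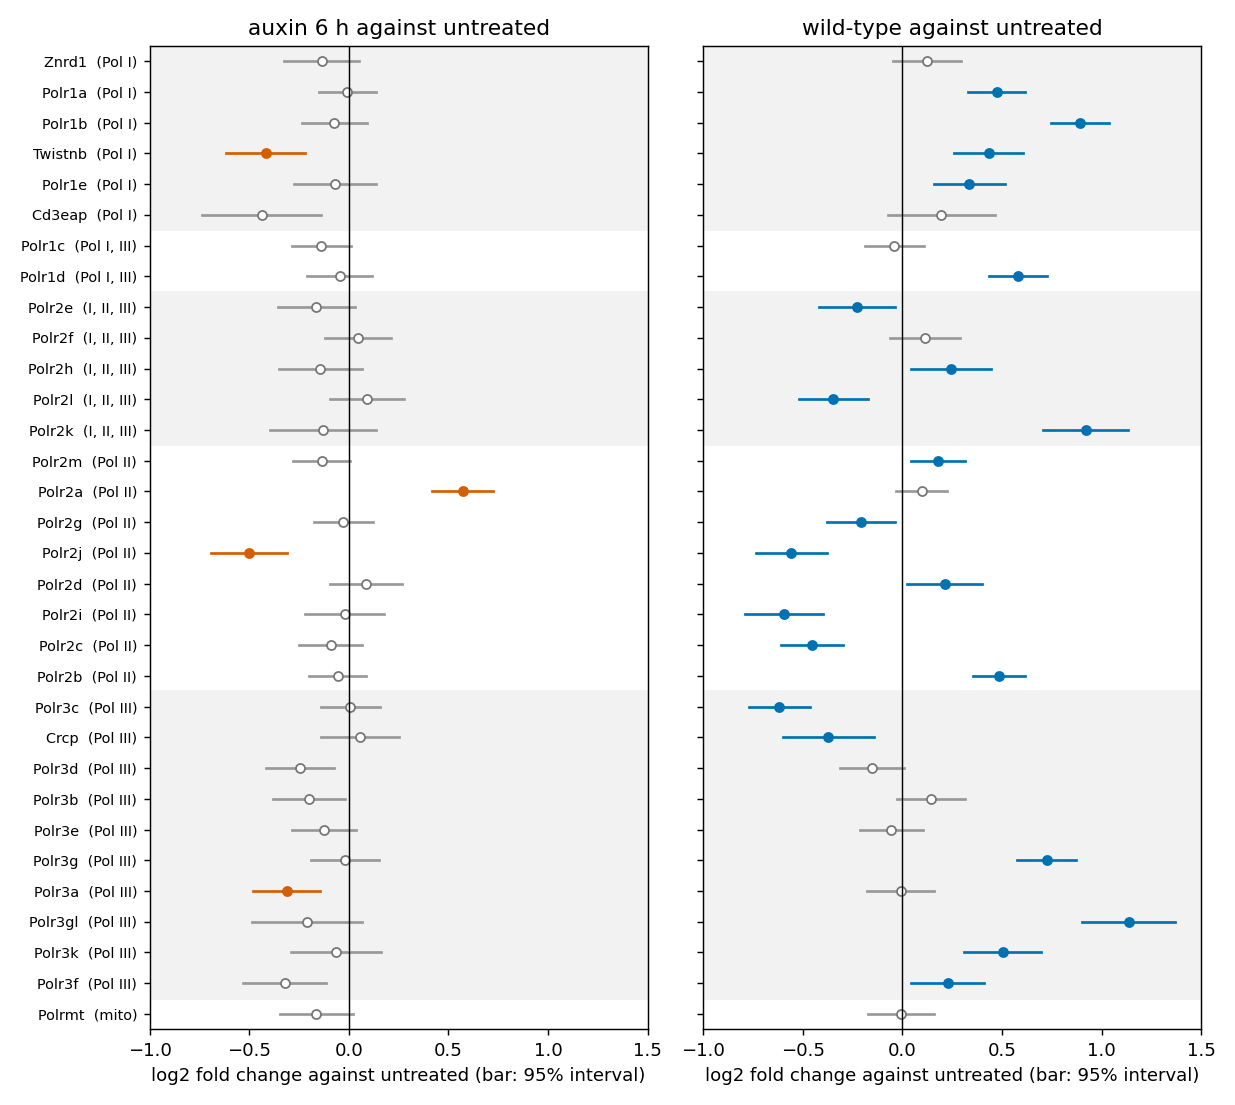
Log2 fold change of 32 of the 33 subunit mRNAs against the untreated libraries, for auxin (left) and wild-type (right), with its 95% interval from edgeR's quasi-likelihood fit (n = 2 libraries a group). Filled points are the called genes, 4 on the left and 22 on the right, and both panels use the same untreated libraries and TMM scaling (scaled to mitochondrial mRNAs, all 33 subunit genes are lower in wild-type).

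The genes that work with the polymerases were called after auxin at a rate near that of all genes. In lists of Pol I factors, Pol III factors, mitochondrial transcription factors, polymerase assembly and import proteins, and enzymes and binders of the RPB1 C-terminal domain, 66 genes in all, none was called higher and 2 were called lower (3.03%, beside 4.20% of all genes in either direction and 1.64% lower), with no call by DESeq2. At an unadjusted p under 0.05, 0 were higher and 15 lower (22.7%), beside 9.38% lower among all genes. Without untreated replicate 1 the count called was 14, without untreated replicate 2 it was 5 and without either auxin-treated library it was 0. Gtf3c5, a subunit of the Pol III factor TFIIIC that binds tRNA gene promoters, had 542 and 578 counts untreated and 482 and 474 after auxin (log2 fold change −0.33, adjusted p = 0.0475). Tefm, the elongation factor of the mitochondrial polymerase, had 323 and 320 counts untreated and 240 and 263 with auxin (log2 fold change −0.46, adjusted p = 0.0361). The groups did not overlap for either gene. None of the 8 Pol I factors, 16 assembly genes or 18 C-terminal domain genes was called by either tool, with list medians of −0.13, −0.01 and −0.10 and with 3, 2 and 4 genes at an unadjusted p under 0.05, all lower. Tbp, a factor of all 3 polymerases, was at −0.29 (adjusted p = 0.0693), and Cdk12, a kinase of the C-terminal domain, at −0.26 (adjusted p = 0.0708).

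The comparison of wild-type with untreated degron cells asks how far the degron line differs from its parent type before auxin. It was much broader. Of the 33 subunit genes, 14 were higher and 8 lower in the wild-type cells after TMM scaling, 66.7% in all, beside 60.6% of the 15778 genes tested (29.9% higher and 30.7% lower), whereas 10 were higher and 9 lower when only library totals were used for scaling and all 33 were lower when the libraries were scaled to mitochondrial mRNAs. DESeq2 called 9 higher and 5 lower, beside 3551 higher and 3465 lower of the 15778 genes. With library totals, 4153 of all genes were higher and 5341 lower, and under mitochondrial scaling 73 were higher and 15235 lower. The directions below are those after TMM scaling, which sets the typical gene as unchanged. The members' share was thus near that of all genes. The median log2 fold change of the members was 0.12 and that of all genes −0.01. Genes of the same enzyme moved in both directions, as 3 Pol II genes were higher and 4 lower, and 4 Pol III genes higher and 2 lower. In Pol I, 4 were higher and none lower after TMM scaling (at an unadjusted p under 0.05 as well, and 3 and 0 by DESeq2), and all 6 lower after mitochondrial scaling.

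Polr3gl differed most. It encodes a subunit of Pol III that takes the same place in the enzyme as the product of its paralog Polr3g, and textbook accounts place Polr3g in pluripotent and dividing cells and Polr3gl in most tissues. Polr3gl lies on the minus strand at chr3:96577872-96594181, where an exon overlaps Gm16253 on the other strand, and Polr3g on the minus strand at chr13:81673843-81711013. Polr3gl had 200 and 208 counts in the untreated and 475 and 416 in the wild-type libraries, a 2.20-fold higher level with a 95% interval of 1.87 to 2.59 (log2 fold change 1.14, standard error 0.11, adjusted p = 3.66e-06). Polr3g had 825 and 817 counts untreated and 1338 and 1354 in the wild-type libraries, 1.65-fold higher with an interval of 1.49 to 1.83 (log2 fold change 0.72, adjusted p = 3.27e-06). Both genes were therefore higher in wild-type cells with no overlap between groups, and the 2 wild-type libraries differed more for Polr3gl than for Polr3g.

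After auxin neither paralog was called. Polr3g had 837 and 904 counts (log2 fold change −0.02, adjusted p = 0.928) and Polr3gl 188 and 191 (−0.21, adjusted p = 0.392). Per kilobase of exon, Polr3g made up 62.6% and 61.4% of the sum of the 2 genes in the untreated libraries, 64.4% and 65.8% after auxin and 53.3% and 56.9% in the wild-type libraries. Polr3g mRNA was thus above Polr3gl mRNA in all 6 libraries, and its share was lowest in both wild-type libraries. From raw counts, which favour the longer Polr3g, the group means were 80.1%, 82.1% and 75.1%.

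**Figure D3:**
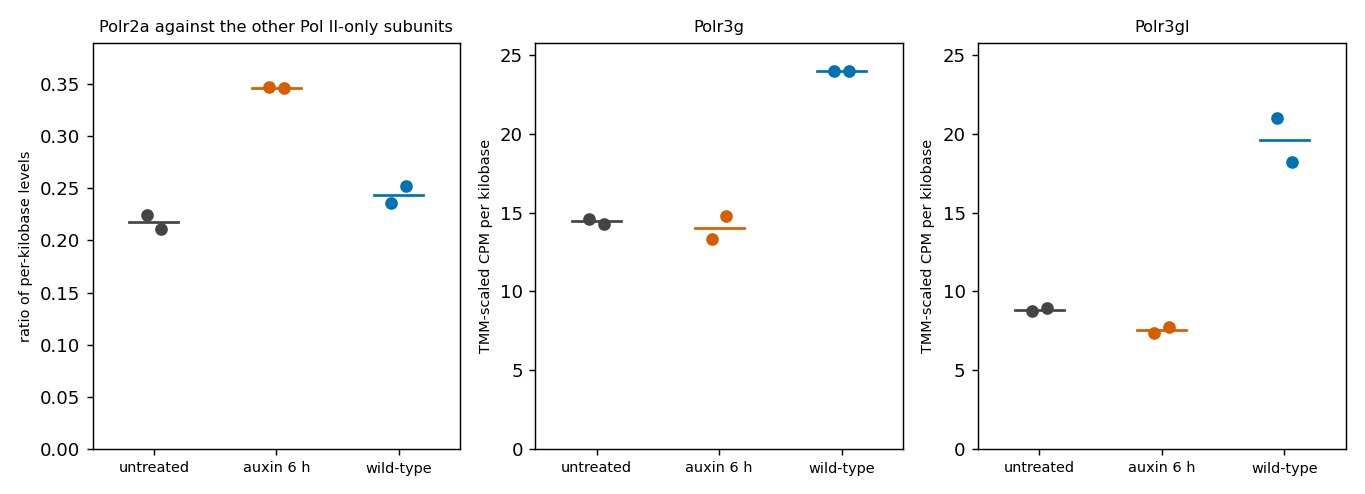
Left, level of Polr2a divided by the summed level of the other genes counted with Pol II, and centre and right, the levels of the paralogs Polr3g and Polr3gl, all per kilobase of exon. Points are single libraries and lines are means of 2, with the auxin-treated ratio at 0.347 and 0.346 and Polr3gl at 21.0 and 18.2 in the wild-type libraries.

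The other large differences of the wild-type cells were spread over the enzymes. Polr2k, a zinc-binding subunit common to all 3 polymerases, had 216 and 217 counts untreated and 414 and 400 in the wild-type libraries (log2 fold change 0.92, adjusted p = 9.68e-06), but 13.7% of its stretches are shared with other annotated genes. Polr1b, the second catalytic subunit of Pol I, had 853 and 823 counts untreated and 1533 and 1555 in the wild-type libraries (0.89, adjusted p = 6.98e-07). Polr1d, shared by Pol I and Pol III, had 1029 and 1050 counts against 1492 and 1594 (0.58, adjusted p = 1.84e-05), with 8.99% of its stretches shared with Gm12751. These groups were well apart.

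Polr3k, a Pol III subunit with a part in RNA cleavage and termination, had 307 and 305 counts untreated and 436 and 426 in the wild-type libraries (log2 fold change 0.50, adjusted p = 0.000444). Polr2b had 1755 and 1722 counts against 2405 and 2428 (0.49, adjusted p = 3.38e-05). The 8 genes that were lower in the wild-type cells included 4 of Pol II. Polr3c, part of the Pol III initiation subcomplex, had 1033 and 1077 counts untreated and 697 and 667 in the wild-type libraries (log2 fold change −0.62, adjusted p = 1.63e-05).

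Polr2i had 509 and 582 counts in the untreated and 349 and 368 in the wild-type libraries (log2 fold change −0.59, adjusted p = 0.000154), with 14.8% of its stretches shared with the overlapping gene Tbcb. Polr2j had 448 and 412 counts in the wild-type libraries, which was −0.56 relative to the untreated cells (adjusted p = 0.000112). Polr2j was thus lower both in the wild-type and in the auxin-treated libraries than in the untreated ones, which serve in both comparisons, so a deviation of the untreated libraries would enter both values. Further called genes ran from 0.47 for Polr1a to 0.18 for Polr2m among the higher ones and from −0.45 for Polr2c to −0.21 for Polr2g among the lower ones. Of the stretches of Polr2c, 17.3% are shared with other annotated genes, and its exons overlap those of Dok4 on the other strand.

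The largest subunits were not alike in this comparison. Polr1a had 2455 and 2668 counts in the wild-type libraries, above the untreated 1794 and 1920 (log2 fold change 0.47, adjusted p = 7.44e-05). Polr2a, the tagged gene, had 6866 and 7129 counts, with both libraries above the untreated ones after scaling but a difference of only 0.10 on the log2 scale (95% interval −0.03 to 0.22, adjusted p = 0.172). Polr3a had 754 and 834 counts (−0.01, interval −0.18 to 0.16) and Polrmt 757 and 782 counts (−0.01, interval −0.17 to 0.16), which overlapped with the untreated libraries and were not called. Summed per kilobase over the genes of Pol I alone, the level was 80.2 and 84.1 in the untreated, 73.2 and 73.2 in the auxin-treated and 104 and 105 in the wild-type libraries. The sums for the Pol II genes were close together in all groups, at 357 and 367, 358 and 378, and 358 and 350. They combine genes that moved in opposite directions, with Polr2a higher and Polr2j lower after auxin and 3 genes higher and 4 lower in wild-type.

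In either direction, the polymerase factors were also called at about the rate of all genes after TMM scaling, at 59.1% beside 60.6%. Of the 66 factors, 30 were higher and 9 lower in the wild-type cells, beside 29.9% and 30.7% of all genes. The factors thus leaned towards higher calls on this scale, unlike all genes. After mitochondrial scaling all 66 were lower. Of the 8 Pol I factors, Rrn3, which brings Pol I to its promoter, differed most, with 1591 and 1888 counts untreated and 3378 and 3524 in the wild-type libraries (log2 fold change 1.00, adjusted p = 7.32e-07). Taf1a, a subunit of the promoter factor SL1, was higher at 0.85 and Ttf1, the terminator protein, at 0.37, and none was lower by edgeR, by DESeq2 or at an unadjusted p under 0.05. Of the 17 Pol III factors, 9 were higher and 3 lower. Snapc3 at 0.72 and Snapc5 at 0.67, subunits of the complex that binds small nuclear RNA promoters, Bdp1 of TFIIIB at 0.54 and Gtf3a, the 5S RNA gene factor, at 0.53 led the higher ones, and Gtf3c6 at −0.59, Brf2 at −0.38 and Brf1 at −0.24 were lower.

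Beside 29.9% of all genes higher and 30.7% lower, 3 of 8 in the mitochondrial list were higher, namely Mterf2 at 0.48, Tefm at 0.45 and Tfam, which packages mitochondrial DNA, at 0.33, and Mterf3 was lower at −0.48. Of the 16 assembly genes, 8 were higher and 3 lower. Uri1 at 0.80, Ruvbl2 at 0.79, Rpap3 at 0.62 and Ruvbl1 at 0.55, which belong to the chaperone complex that assembles polymerases, were higher, whereas Pdrg1 at −0.83, Uxt at −0.50 and Pih1d1 at −0.43, of the same machinery, were lower. Of the 18 C-terminal domain genes, 7 were higher and 2 lower, led by the binders Rprd1a at 0.94 and Rprd2 at 0.87, the phosphatase Ctdspl at 0.80 and the kinase Cdk12 at 0.46, with the phosphatases Ssu72 at −0.59 and Ctdsp1 at −0.36 lower.

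Other features moved with the wild-type values. Over the pluripotency markers, 6 of 10 were higher and 1 lower in wild-type cells (median 0.62), and of the 8 feeder markers tested 2 were higher and 4 lower (median −0.31). Their part in the subunit differences was not tested. When the libraries were scaled to the mitochondrial mRNAs instead, the median of all genes moved to −2.10, the calls over all genes from 4713 higher and 4842 lower to 73 higher and 15235 lower, and all 33 subunit genes were called lower, from −0.96 for Polr3gl to −2.71 for Polr3c. Relative to that median, Polr3gl was at 1.15, Polr2k at 0.93, Polr1b at 0.90 and Polr3c at −0.61 so that the direction of a change depended on the scale.

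The wild-type differences of the subunit genes also went with the base composition of their transcripts. Across the 33 genes, which share libraries and are not independent, Spearman's rho of log2 fold change and GC content was −0.611, against −0.120 across 15609 genes tested. In the 11 subunit genes with the lowest GC content (38.4% to 50.6%), 9 were higher and 1 lower, with a median of 0.43. In the middle 11, 5 were higher and 3 lower, and in the 11 with the highest GC content (52.2% to 60.2%) none was higher and 4 were lower, with a median of −0.04. All genes tested leaned the same way. Of the 5203 with the lowest GC content (26.3% to 47.6%), 1949 were higher and 1266 lower, with a median of 0.10. Of the middle 5203, 1432 were higher and 1696 lower. Of the 5203 with the highest (53.6% to 80.3%), 1304 were higher and 1827 lower, with a median of −0.09. After auxin the rho across the 33 genes was −0.015. With an offset for GC content in the edgeR fit, Polr2a (0.17, adjusted p = 0.0266) and Polr2f (0.21, adjusted p = 0.0294) became called in the wild-type comparison and Polr2e, Polr2g and Polr3f were no longer called (adjusted p = 0.192, 0.0753 and 0.291), and after auxin all 33 genes kept their side of the threshold and 31 their direction. Whether GC content has a part in these differences was otherwise not tested.

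**Figure D4:**
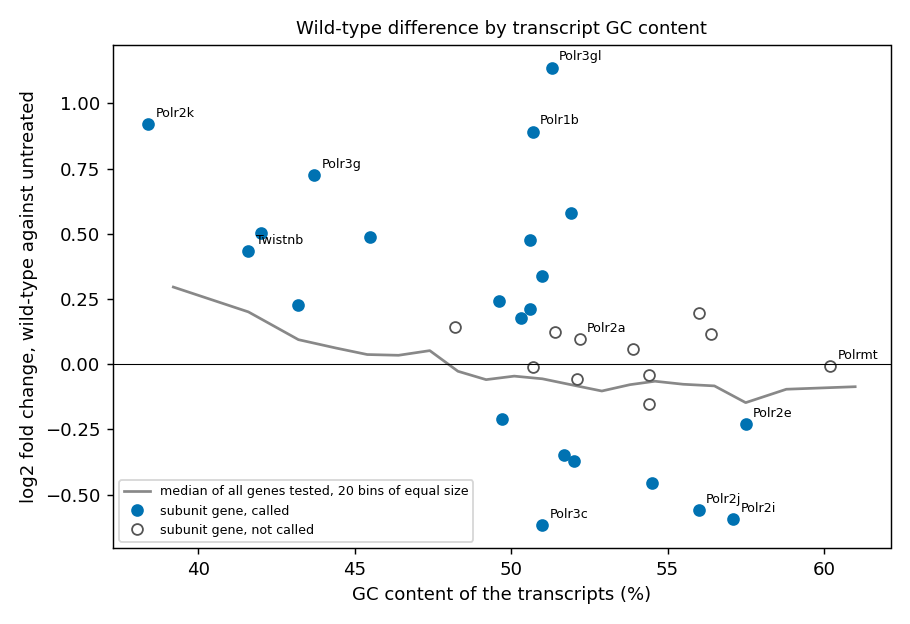
Log2 fold change of wild-type against untreated libraries for each subunit gene (points, filled where called) by the GC content of its transcripts in percent, with the median of all genes tested in bins of GC content (line). The points fall from left to right with a rho of −0.611, and the line runs from 0.30 at a GC content of 39.2% to −0.09 at 61.0%.

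Promoters of genes that these results turn on follow, to set the genes that moved side by side. They were taken from RefSeq (GRCm38.p6), from 250 bases before to 50 bases after the start, and 26 of the 33 genes had an entry, some of them 2. The searched motifs, on both strands, were the TATA box TATAAA, the CCAAT box, the GC box GGGCGG, the ETS core CCGGAA, the E-box CACGTG, the cyclic AMP response element TGACGTCA, the NRF1 element CGCATGCG and the YY1 element AAGATGGCG, and matches are in capitals. Polr2a is at chr11:69758584-69758883 (minus), Polr2j at chr5:136116441-136116740 (plus), Twistnb at chr12:33429374-33429673 (plus), Polr3g at chr13:81710964-81711263 (minus) and Polr3gl at chr3:96594132-96594431 (minus).
Polr2a: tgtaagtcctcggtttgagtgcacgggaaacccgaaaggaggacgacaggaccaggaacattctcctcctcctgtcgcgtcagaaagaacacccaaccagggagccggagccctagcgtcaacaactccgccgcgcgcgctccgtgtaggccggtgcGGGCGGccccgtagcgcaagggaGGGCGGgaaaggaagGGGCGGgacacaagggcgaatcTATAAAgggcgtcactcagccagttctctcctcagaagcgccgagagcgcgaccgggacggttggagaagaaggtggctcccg
Polr2j: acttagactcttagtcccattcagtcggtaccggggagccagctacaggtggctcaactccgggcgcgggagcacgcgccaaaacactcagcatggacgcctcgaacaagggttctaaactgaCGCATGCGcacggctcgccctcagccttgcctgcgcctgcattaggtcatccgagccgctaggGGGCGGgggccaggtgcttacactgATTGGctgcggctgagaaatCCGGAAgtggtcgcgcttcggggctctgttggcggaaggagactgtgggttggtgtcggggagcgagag
Twistnb: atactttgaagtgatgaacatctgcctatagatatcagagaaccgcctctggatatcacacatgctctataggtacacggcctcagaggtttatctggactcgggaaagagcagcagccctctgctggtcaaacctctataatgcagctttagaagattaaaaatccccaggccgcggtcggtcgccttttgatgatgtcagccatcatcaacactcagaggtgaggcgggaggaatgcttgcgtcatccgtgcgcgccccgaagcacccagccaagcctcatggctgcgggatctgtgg
Polr3g: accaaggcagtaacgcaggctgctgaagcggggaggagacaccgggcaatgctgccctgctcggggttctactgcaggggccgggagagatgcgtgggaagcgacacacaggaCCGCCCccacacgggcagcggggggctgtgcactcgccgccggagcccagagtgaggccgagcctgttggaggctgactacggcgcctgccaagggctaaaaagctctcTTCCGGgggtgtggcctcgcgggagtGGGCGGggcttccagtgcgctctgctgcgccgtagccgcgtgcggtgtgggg
Polr3gl: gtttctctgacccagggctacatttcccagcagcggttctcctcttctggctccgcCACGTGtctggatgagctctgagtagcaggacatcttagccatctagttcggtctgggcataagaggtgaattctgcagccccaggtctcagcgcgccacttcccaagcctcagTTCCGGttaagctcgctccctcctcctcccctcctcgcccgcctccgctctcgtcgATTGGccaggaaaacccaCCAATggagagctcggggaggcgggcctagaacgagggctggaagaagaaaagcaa

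The Polr2a window held a TATAAA and 3 GC boxes, and it was 1 of 3 among the 29 member promoters (10.3%) with a TATAAA, which 13.6% of all 32851 RefSeq promoters held. Of the genes that fell with auxin, Polr2j held a GC box as well, with a CCAAT box, an ETS core and an NRF1 element, Twistnb held none of the searched motifs, and Polr3a had no entry. The paralogs differed too, with 2 GC boxes and an ETS core for Polr3g and 2 CCAAT, an ETS core and an E-box for Polr3gl. Among the 29 member promoters, the ETS core was found in 13 (44.8%, against 14.9% of all promoters) and the GC box in 15 (51.7%, against 35.7%), and CCAAT in 9 (31.0%, against 37.4%). The E-box was found in 5 (17.2%, against 7.15%), the cyclic AMP response element in the 2 entries of Znrd1 (6.90%, against 1.79%), the NRF1 element in those of Polr2b and Polr2j (6.90%, against 1.87%), and the YY1 element in none (1.4% of all promoters). The member promoters had a median of 21 CG dinucleotides, against 7 for all promoters. These are counts of letters and say nothing of whether a factor binds.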

How the data were processed

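PolyA RNA was sequenced in 6 libraries, 2 each of untreated degron, auxin-treated degron and wild-type mESCs. The authors aligned paired reads to mm10 with hisat2 2.1.0, counted them per GENCODE gene with salmon and htseq-count, and deposited whole-number counts without normalization, degron and wild-type libraries in separate tables. The annotation release and strand setting are not given in the sources used here, so genes that overlap on either strand are uncertain. Columns of the authors' own DESeq2 comparison (fold changes and p-values) and 2 per-sample columns that match no sample were not used. The tables were joined by gene ID, since 27 symbols differed, and groups were taken from the sample titles.

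Genes kept by filterByExpr (minimum count 10) were tested by the quasi-likelihood test of edgeR (version 4.0.16, R version 4.3.3) with TMM scaling and Benjamini-Hochberg adjustment, each comparison on its own 4 libraries, and called at an adjusted p under 0.05. All 33 members passed the filter in both comparisons (16128 and 15778 genes). Fold changes include the default prior count of 0.125. The procedure was tested on simulated data with changes larger than those called after auxin. That test does not bear on changes of their size. Levels per kilobase use exon lengths of GENCODE vM21, with TMM scaling over all 6 libraries. Stretches shared with other genes are the share of a gene's 100-base transcript stretches that occur in another annotated gene's transcripts. The libraries held 14094022 to 15358714 counts. For members with lower counts, such as Polr3gl and Polr2k, the untreated libraries differed by less than counting error alone would give, so their SD over 2 libraries understates the error.

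The members and gene lists were chosen with earlier results of these data known. Values of 1 member are not reported here, although it is in every fit and count. The others are reported, with counts in each library for the largest subunit of each polymerase, Polr3g and Polr3gl, each member called after auxin and the 10 called members with the largest change in the wild-type comparison. Of a factor list, at most 4 called genes a direction are named, with Tbp and Cdk12 after auxin, and the near-threshold Cd3eap, Polr3d and Polr3f, added after their values were seen. Alternatives were DESeq2 1.42.0, other scalings (its size factors, library totals, mitochondrial mRNAs), other filters, all 3 groups in one fit, robust dispersion, a prior count of 5, the replicate number as a block and each library left out in turn. An offset for transcript GC content was added after seeing the data. So were the promoter motifs, of which the NRF1 element was shortened after a longer form had been found in no member promoter.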

Additional observations from a re-analysis of the deposited data

How the results depend on the processing

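With 2 libraries a group, the counts of called genes after auxin depended on most choices. Of the 33 subunit genes, 4 were called in the fit as reported, 2 with DESeq2, 1 with no filter, 7 with all 3 groups in one fit and 0 under mitochondrial scaling, and leaving out each library in turn gave 1 to 12. Of the 66 factor genes, 2 were called as reported, 0 with DESeq2, with no filter, with at least 10 counts in every library and under mitochondrial scaling, 1 with library totals, 9 with all 3 groups together and 0 to 14 with a library left out. A fit that leaves out a library has a single library in that group, which is taken to vary like the other group. The replicate numbers were not shown to pair the libraries, since the replicate differences of the groups correlated at 0.0531 across genes for auxin and −0.0289 for wild-type; as a block, the number gave 8 subunit and 12 factor genes after auxin and 22 and 38 in the wild-type comparison. Over all genes, 677 were called after auxin as reported, 236 with DESeq2, 219 under mitochondrial scaling, 55 with no filter, 1235 with all 3 groups, 1930 with the replicate block and 179 to 2724 with a library left out. The log2 fold change of Polr2a after auxin was 0.40 under mitochondrial scaling and 0.53 to 0.60 with a library left out.

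In the wild-type comparison 22 subunit genes were called as reported and 14 with DESeq2, and 39 factor genes as reported and 66 under mitochondrial scaling. Over all genes, 9555 of 15778 were called as reported, 7086 of 24746 with DESeq2 and 15308 of 15778 under mitochondrial scaling. That scaling turned the direction of 20 subunit genes. Those reported here were then at log2 fold changes of −0.96 for Polr3gl, −1.17 for Polr2k, −1.21 for Polr1b, −1.37 for Polr3g, −1.52 for Polr1d, −1.59 for Polr3k, −1.61 for Polr2b, −1.62 for Polr1a, −1.66 for Twistnb, −1.76 for Polr1e, −1.84 for Polr2h, −1.87 for Polr3f, −1.88 for Polr2d, −1.90 for Cd3eap, −1.92 for Polr2m, −1.94 for Polr3b, −1.97 for Znrd1, −1.98 for Polr2f and −2.00 for Polr2a.

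The remaining changes of sign reported here were of genes near 0 that were called in neither fit. After auxin these were, under mitochondrial scaling, Crcp (−0.11), Polr2d (−0.081), Polr2f (−0.12), Polr2l (−0.071) and Polr3c (−0.16), and Polr3c also with DESeq2 (−0.0041), no filter (−0.015) and all 3 groups (−0.012), Polr1a with library totals (0.0085) and the GC offset (0.0090), and Polr3g with the GC offset (0.010). In the wild-type comparison they were, with the GC offset, Polr1c (0.044), Polr3a (0.044), Polr3e (0.013) and Polrmt (0.098), and Polrmt also with DESeq2 (0.0002) and all 3 groups (0.0009). With a library left out, the auxin values ranged from −0.021 to 0.12 for Crcp, −0.051 to 0.027 for Polr1a, −0.12 to 0.023 for Polr1d, −0.035 to 0.12 for Polr2f, −0.11 to 0.065 for Polr2i, −0.018 to 0.023 for Polr3c and −0.094 to 0.051 for Polr3g. The wild-type values ranged from −0.093 to 0.012 for Polr1c, −0.070 to 0.064 for Polr3a, −0.13 to 0.013 for Polr3e and −0.078 to 0.066 for Polrmt.

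The mean ratio of Polr2a to the other Pol II genes, 0.218 untreated, 0.347 after auxin and 0.244 in wild-type, was 0.709, 1.13 and 0.760 from raw counts and 0.286, 0.452 and 0.341 without Polr2m. The share of Polr3g, 62.0%, 65.1% and 55.1% per kilobase, was 80.1%, 82.1% and 75.1% from raw counts. Except for the alternatives' own construction, the cause of these differences was not tested.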
